A study of Bos grunniens x Bos taurus and Bos grunniens with 12 samples.

Results

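The entries examined here are the cattle-named microRNAs (miRNAs) miR-22, miR-186 and miR-191 in exosomes from the milk of Jeryak and yak. They were taken by name from the table of small RNAs, as every entry whose name begins bta-miR-22- or is bta-miR-186 or bta-miR-191, and 4 of 2263 entries met this rule (4 of the 583 entries with a cattle, bta, prefix). These are both arms of miR-22 (22-3p and 22-5p), miR-186 and miR-191. The names alone chose them, so that their levels and their differences between groups are measurements that the rule did not use.

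The Jeryak, labelled cattle-yak, is the hybrid of yak and Jersey cattle. Small RNA was sequenced in 12 libraries, 3 in each of 4 groups, from Jeryak milk in December, yak milk in December, Jeryak milk in June and yak milk in June. All animals were lactating and 4 to 5 years old, no treatment was given in any group. The sources name 3 yaks and 3 Jeryaks with milk from June and December. They do not say outright if the same animals gave milk in both months. Nothing ties a library number to an animal, so the p-values measure the spread between these libraries.

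A miRNA is a short RNA cut from a hairpin precursor, and it lowers the output of messenger RNAs that pair with its seed, the bases 2 to 8 from its 5′ end. Either arm of a hairpin can be kept, and the arm kept more often is usually counted at a much higher level. miR-22 is made from its own non-coding host gene, MIR22HG, and is found in many tissues. In human, miR-186 lies in an intron of ZRANB2, which encodes an RNA-binding protein, and miR-191 lies beside miR-425 in an intron of DALRD3. miR-191 is often used as a reference miRNA in qPCR, and milk carries exosomes shed largely by the mammary epithelium.

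The sequences of the 4 entries as listed in the table are shown first because the seed and the last base matter for what follows. They are written 5′ to 3′ with T for U, and the capitals mark the seed. In the names, R and L give bases added or missing at the 3′ and 5′ ends compared with miRBase, so that R+1 is 1 base longer at the 3′ end.

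bta-miR-186: cAAAGAATtctccttttgggct

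bta-miR-22-3p_R+1: aAGCTGCCagttgaagaactgt

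bta-miR-191_R-1: cAACGGAAtcccaaaagcagct

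bta-miR-22-5p_R-1: aGTTCTTCagtggcaagcttt

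The 4 seeds differ from one another. Over all 2263 entries, the seed of miR-22-3p was shared by 2 other entries and that of miR-186 by 2 other entries, all of them named for the same miRNA in another species. The seeds of miR-191 and miR-22-5p were shared by none. The table also held 7 entries of other species named miR-22 (3), miR-186 (3) or miR-191 (1), and those in which the results turn on a base are printed where they are described.

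Levels are norm values, the copy number of an entry multiplied by 1 correction factor per library. The sums of norm values were 588715 to 816871 per library. A single copy stood for 0.127 to 0.269 norm values in December Jeryak libraries and for 0.730 to 3.30 in the other 9, since the copies summed over all entries reached 2281114 to 6168481 in December Jeryak and 247528 to 840850 in the others. Depth therefore moved with 1 group, and its part in the results was not tested. Libraries of a group correlated at 0.941 to 0.974 in December and at 0.766 to 0.813 in June (Pearson's r of log2 norm values across entries, which are not independent replicates). Markers of mammary epithelium, 9 of 9 above 0 in every group, summed to 193633 to 333466 in all libraries. Leukocyte markers summed to 720, 753 and 7930 in the December Jeryak libraries, 446 to 675 in December yak, 88.8 to 233 in June Jeryak and 110 to 314 in June yak.

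The order of abundance was miR-186, miR-22-3p, miR-191 and, far below, miR-22-5p. By mean norm value over 12 libraries, miR-186 was the 8th entry of the table, miR-22-3p the 17th, miR-191 the 27th. Within single libraries their ranks were 5 to 16, 8 to 37 and 15 to 36, and that of miR-22-5p was 140 to 224. The label "abundant" therefore fits 3 of the 4 entries, and miR-22-5p held only 0.0111 to 0.0465% of a library. Together the 4 entries made up 2.89% ± 0.454 of the norm values in December Jeryak, 3.01% ± 0.254 in December yak, 5.74% ± 0.877 in June Jeryak and 5.92% ± 1.70 in June yak (SD, n = 3 each). All 4 passed the filter for testing, 10 or more norm values in 3 or more libraries, which 620 of the 2263 entries did.

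**Figure D1:**
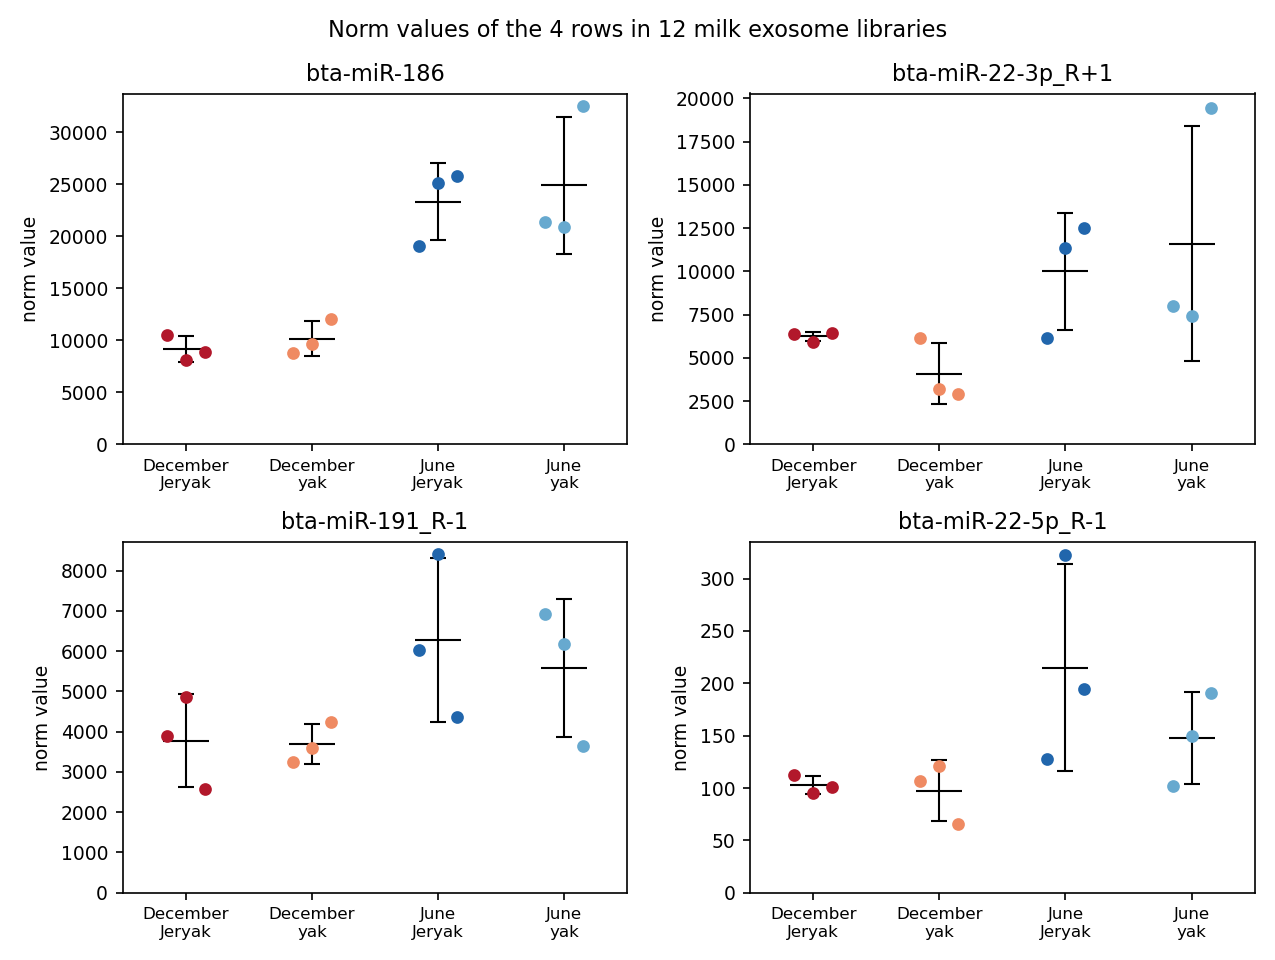
Norm values (y axes, linear from 0, a scale of its own in each panel) of the 4 entries by group, with 1 point per library and the mean ± SD of 3 libraries as lines. For miR-186 the 6 December libraries lie at 8094 to 12092 and all 6 June libraries lie above them, at 19045 to 32502.

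miR-186 was lower in December than in June in both breeds. Its norm values were 10548, 8094 and 8836 in December Jeryak, against 19045, 25102 and 25799 in June Jeryak. They were 8762, 9659 and 12092 in December yak, against 21358, 20869 and 32502 in June yak. Every December library lay below every June library, over both breeds, which held for 13.9% of the 620 entries tested. The means were 9159 ± 1259 in December Jeryak and 10171 ± 1723 in December yak, and 23315 ± 3715 in June Jeryak and 24910 ± 6580 in June yak (SD, n = 3 each). The breeds, neighbours in this order within each month, did not differ beyond their spread. As a share of the library, miR-186 made up 1.38% ± 0.326 in December Jeryak and 1.70% ± 0.321 in December yak, against 3.36% ± 0.394 in June Jeryak and 3.495% ± 0.971 in June yak. These values rest on 5910 to 63776 copies per library.

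On the log2 scale of norm value plus 1, miR-186 fell by 1.34 (SE 0.265) in December Jeryak against June Jeryak, or 2.54-fold (limma, adjusted p = 0.0016). In yak the change was -1.27 (SE 0.265), or 2.42-fold lower in December (limma, adjusted p = 0.00197). The average of both month differences was -1.31 (SE 0.187, adjusted p = 8.9e-05), and the difference between the breeds in this change was -0.07 (SE 0.375, adjusted p = 0.936). miR-186 was below the June level in 3 of 3 December libraries of each breed. Over all 620 entries the median change was -0.61 in Jeryak and -0.59 in yak, so that miR-186 stood 0.73 and 0.68 further down than the median entry on the log2 scale. Over the 251 bta entries tested, by contrast, the median change was 0.56 in Jeryak and 0.20 in yak.

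miR-22-3p, the main arm of miR-22, fell in December in yak. Its norm values were 6141, 3203 and 2913 in December yak, against 7986, 7407 and 19427 in June yak, with no overlap between the months, as for 25.5% of the entries tested in that direction. June yak replicate 3 was the highest of all 12. In December Jeryak they were 6369, 5912 and 6425, against 6163, 11329 and 12492 in June Jeryak, where June replicate 1 lay within the December range. The December Jeryak libraries were close to each other, with a coefficient of variation of 4.52%, against 58.4% in June yak. The means were 6235 ± 282 in December Jeryak, 4086 ± 1786 in December yak, 9995 ± 3369 in June Jeryak and 11607 ± 6779 in June yak (SD, n = 3 each). The breeds overlapped in each month, so that their order is not fixed by these libraries. The entry rests on 1563 to 46583 copies per library.

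The log2 change of miR-22-3p, December against June, was -1.44 in yak (SE 0.419, limma, adjusted p = 0.0174), or 2.72-fold lower in December. In Jeryak it was -0.62 (SE 0.419, 95% interval -1.52 to 0.29, adjusted p = 0.253). The difference between these changes was 0.83 (SE 0.592, limma, adjusted p = 0.458), so that the breeds were not shown to differ. Averaged over both breeds the change was -1.03 (SE 0.296, adjusted p = 0.0098), or 2.04-fold lower in December. The call in yak was lost without June yak replicate 3 (change -0.996, adjusted p = 0.0692), and without December yak replicate 2 (adjusted p = 0.0644) or 3 (adjusted p = 0.0751). It was also lost with no filter on low values (adjusted p = 0.0506) or when only the 6 yak libraries were fitted (adjusted p = 0.101).

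miR-191 had norm values of 3898, 4869 and 2573 in December Jeryak, against 6034, 8417 and 4360 in June Jeryak. In yak they were 3257, 3605 and 4238 in December, against 6917, 6170 and 3647 in June. The months overlapped in both breeds, through June replicate 3 in each. The means were 3780 ± 1152 in December Jeryak and 3700 ± 497 in December yak, and 6270 ± 2039 in June Jeryak and 5578 ± 1714 in June yak (SD, n = 3 each). Neighbouring groups in this order overlapped.

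The log2 changes of miR-191 in December against June did not pass in either breed (limma), at -0.73 (SE 0.350, adjusted p = 0.11) in Jeryak and -0.55 (SE 0.350, adjusted p = 0.244) in yak. Only their average passed, at -0.64 (SE 0.247, adjusted p = 0.0423), or 1.56-fold lower in December. That call was lost under 3 of the other settings (adjusted p = 0.133 with no filter, 0.102 with values scaled to the same total and 0.0503 with median-of-ratios scaling). Leaving out 1 library at a time, it was kept only without June Jeryak replicate 3, June yak replicate 3 or December Jeryak replicate 2 and lost without any of the other 9, with adjusted p from 0.0139 to 0.103 over the 12 fits. At -0.11 beyond the median change of all entries, the average change of miR-191 was close to that of the median entry, while the median bta entry was 0.55 higher in December.

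miR-22-5p, the lesser arm, had norm values of 113, 95.6 and 101 in December Jeryak, against 128, 322 and 195 in June Jeryak. In yak they were 107, 121 and 65.2 in December, against 102, 149.8 and 190.5 in June. The months did not overlap in Jeryak, as for 31% of the entries tested in that direction, and they overlapped in yak. No change passed (limma). It was -0.95 in Jeryak (SE 0.463, adjusted p = 0.111), -0.59 in yak (SE 0.463, adjusted p = 0.34) and -0.77 on average (SE 0.327, adjusted p = 0.0574). The average passed without June replicate 1 of Jeryak (-0.93, adjusted p = 0.0267) or of yak (-0.89, adjusted p = 0.036). This entry rests on 31 to 753 copies per library, the fewest in June yak replicate 1 and the most in December Jeryak replicate 2.

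**Figure D2:**
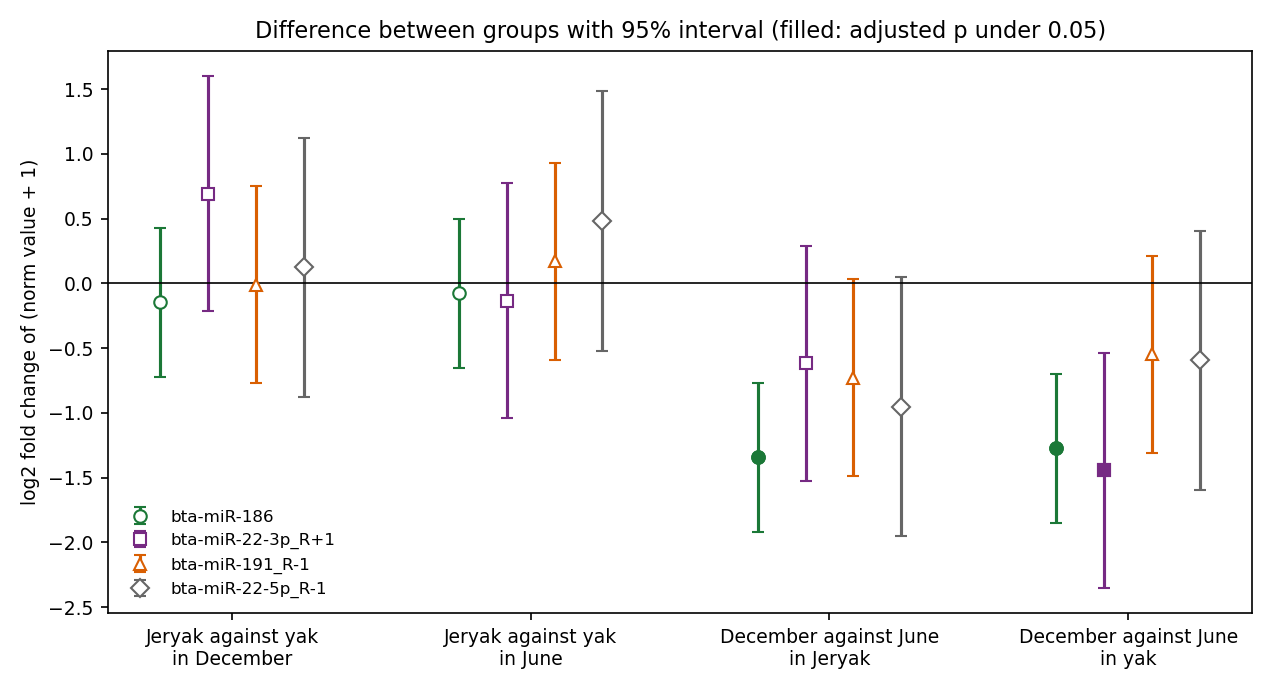
Log2 fold changes of norm value plus 1 (y axis) of the 4 entries in each comparison (x axis), group named first minus group named second, with 95% intervals; filled symbols have an adjusted p under 0.05 (limma). The filled symbols are miR-186 in both month comparisons (-1.34 and -1.27) and miR-22-3p in yak (-1.44), and every interval between breeds includes 0.

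Of the 4 entries, 1 passed between December and June in Jeryak, where 40.8% of the 620 entries passed in either direction, and 2 passed in yak, where 34% did. On average over both breeds 3 of 4 passed, against 58.4% of all entries. All these calls were lower in December. A lower call was found for 28.9% of all entries in Jeryak, 22.6% in yak and 38.1% on average, but for only 5.58%, 7.17% and 13.1% of the bta entries. The 1 of 4 in Jeryak is near the share of all entries that fell. The 2 of 4 in yak and the 3 of 4 on average are above that share. All are above the share of bta entries that fell, though 4 entries are too few to read a share from. The bta entries that rose in December outnumbered those that fell (50 against 14 in Jeryak and 36 against 18 in yak).

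Among the 54 bta entries with a mean norm value of at least 1000, miR-186 had the 7th lowest change between December and June in both breeds. miR-22-3p was the 12th lowest in Jeryak and the 6th lowest in yak, and miR-191 the 10th and the 17th. The median change of these 54 entries was 0.20 in Jeryak and 0.12 in yak. Of the 54, 8 passed as lower and 14 as higher in December in Jeryak, and 7 as lower and 8 as higher in yak. Over the same month comparisons all 5 leukocyte markers with an entry rose in December Jeryak, with a median log2 change of 5.39, and 1 of 5 rose in December yak. Of these 5, miR-142-3p and miR-150 were at 0 in all June libraries, and so met the filter for testing only through December. The counts and the median above include these 2 markers, and their rise adds no support. The other 3 were above 0 in every group, at mean norm values in December Jeryak, December yak, June Jeryak and June yak of 1796, 51.6, 21.9 and 19.3 for miR-142-5p, 378, 70.8, 17.4 and 11.7 for miR-155 and 454, 374, 140 and 195 for miR-342. The leukocyte sums of the 3 December Jeryak libraries were 720, 753 and 7930, so that 1 library held most of the summed leukocyte signal of that group. miR-223 had no bta entry. Of the 2 red cell markers tested, 1 fell in each breed, and the red cell markers summed to 15.4 to 22.6 in December Jeryak, 39.2 to 173 in December yak, 46.9 to 185 in June Jeryak and 104 to 781 in June yak. Of the 4 stromal and endothelial markers with an entry, 1 rose in December in each breed and 2 on average, and these markers summed to 341 to 2706 in December Jeryak, 725 to 2369 in December yak, 232 to 359 in June Jeryak and 267 to 1049 in June yak. Of the 9 epithelial markers, 1 rose in December Jeryak and 0 passed in yak. Of all 620 entries tested, 11.9% rose in December in Jeryak, 11.5% in yak and 20.3% on average. Of the bta entries, 19.9%, 14.3% and 31.5% rose. The shares that fell in Jeryak and yak were 28.9% and 22.6% of all entries and 5.58% and 7.17% of the bta entries. The part of these cell types in the change of miR-186 and miR-22-3p was not tested, and fewer vesicles from a cell type cannot be told apart from less RNA in each.

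Between the breeds none of the 4 entries passed (limma). The share of all entries that passed was 5.97% in December and 5% in June, and none of the 4 had an unadjusted p under 0.05 in either month. In December, Jeryak minus yak was -0.15 for miR-186 (95% interval -0.72 to 0.43) and 0.69 for miR-22-3p (-0.21 to 1.60). For miR-191 it was -0.01 (-0.77 to 0.75) and for miR-22-5p 0.12 (-0.88 to 1.13). In June the differences were -0.08 for miR-186 (-0.65 to 0.50), -0.13 for miR-22-3p (-1.04 to 0.77), 0.17 for miR-191 (-0.59 to 0.93) and 0.48 for miR-22-5p (-0.52 to 1.48). The intervals are narrowest for miR-186, and they do not show that the levels are equal. On average over the months 0 of 4 passed, against 6.61% of all entries. The test of whether the month change differs between the breeds was passed by none either (0 of 4, against 5.48% of all entries).

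Ratios between entries of the same library do not depend on the correction factor. The ratio of miR-22-3p to miR-22-5p was 60.6 ± 3.64 in December Jeryak, 42.9 ± 15.7 in December yak, 49.2 ± 14.5 in June Jeryak and 76.5 ± 26.3 in June yak (SD, n = 3 each). The 3p arm was thus at least 26.5 times the 5p arm in each of the 12 libraries, and 102 times at most. The log2 ratio did not differ between December and June (-0.25, exact permutation test within breeds, two-sided, p = 0.465) or between Jeryak and yak (-0.03, exact permutation test within months, two-sided, p = 0.945) beyond the spread.

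miR-186 stood at 2.60 ± 0.891 times miR-191 in December Jeryak and 2.74 ± 0.0974 times in December yak, against 4.02 ± 1.65 in June Jeryak and 5.13 ± 3.28 in June yak. The log2 ratio was 0.67 lower in December (exact permutation test within breeds, two-sided, p = 0.03, adjusted over 10 such tests 0.15), with p of 0.01 to 0.115 when a library was left out. In yak all 3 December libraries lay below all 3 June libraries, and in Jeryak the months overlapped. The ratio of miR-186 to miR-22-3p was 1.47 ± 0.164 in December Jeryak, 2.86 ± 1.37 in December yak, 2.46 ± 0.553 in June Jeryak and 2.39 ± 0.623 in June yak, with no difference beyond the spread between months (p = 0.355) or breeds (p = 0.235, exact permutation tests, two-sided). These ratios were chosen after the values had been seen, and the smallest p that 400 permutations can give is 0.005.

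**Figure D3:**
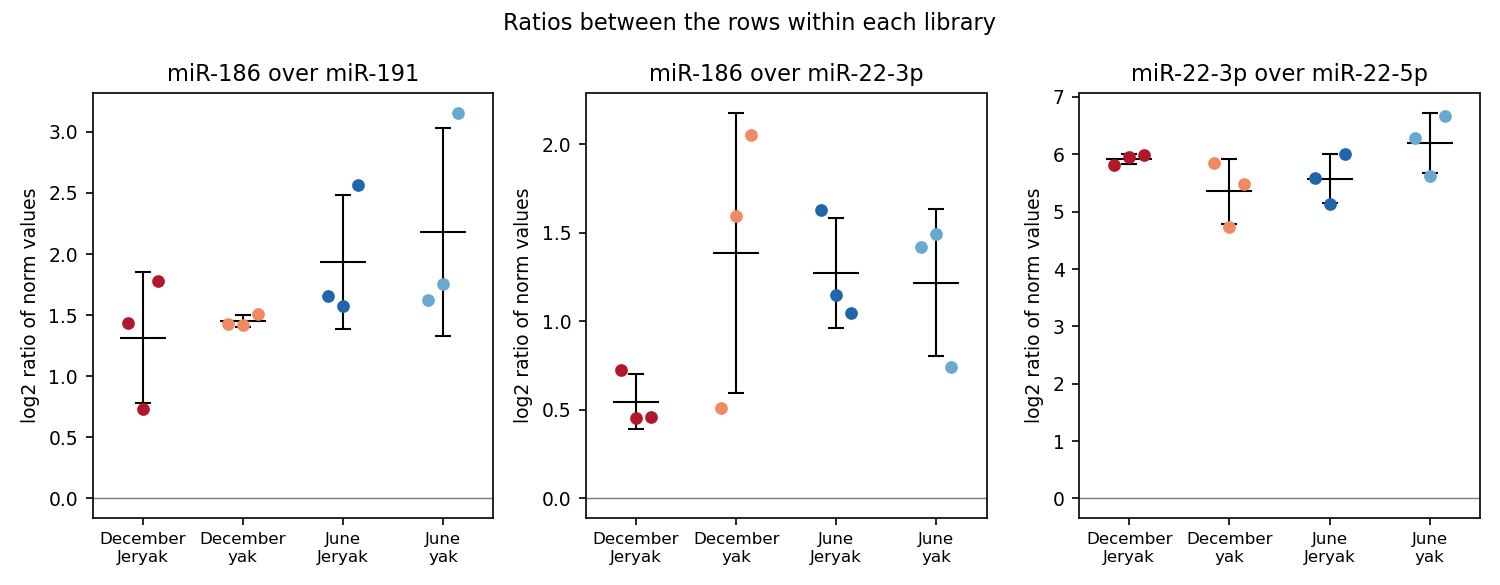
Log2 ratios of norm values within each library (y axes) by group, with 1 point per library and the mean ± SD of 3 libraries as lines. The ratio of miR-186 to miR-191 averages 1.32 and 1.45 in December Jeryak and yak and 1.93 and 2.18 in June Jeryak and yak.

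A second entry of miR-22-3p, named for the opossum, went the other way. It is the same 22 bases as the cattle-named entry but for the last base, T22C, counted from 1 at the 5′ end, and so keeps the seed. This last base lies beyond the cattle miRBase sequence, as the R+1 in the name of the cattle entry says. The changed base is in capitals.

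mdo-miR-22-3p: aagctgccagttgaagaactgC

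The C-ended entry had norm values of 369, 347 and 612 in December Jeryak, against 9.24, 29.5 and 41.9 in June Jeryak. In yak they were 462, 359.6 and 207 in December, against 0, 16.3 and 64.4 in June. Every December library lay above every June library, as for 6.94% of the 620 entries tested. The log2 change was 4.18 in Jeryak (SE 1.16, limma, adjusted p = 0.0107) and 4.97 in yak (SE 1.16, limma, adjusted p = 0.00455). The value in yak depends on the pseudocount because of the 0 in a June yak library. With only the 6 yak libraries in the fit it did not pass (adjusted p = 0.0811).

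Of all copies of the T-ended and C-ended entries, the C-ended ones were 5.48%, 5.55% and 8.69% in December Jeryak, against 0.150%, 0.259% and 0.335% in June Jeryak. In yak they were 6.995%, 10.1% and 6.63% in December, against 0%, 0.220% and 0.330% in June. The 95% Wilson intervals, which cover counting error only, ran from 5.26 to 11.4% over the December libraries. In the June yak library at 0 of 2420 copies, the limit that a true count of 0 allows (3 copies) is 0.124%. No entry named miR-22, miR-186, miR-191 or miR-425 was above 0 at fewer than 5 copies in any library. A listed 0 may thus stand for a few copies, to which that limit does not apply. The smallest count was 5 of 3340 among the other June libraries. The share was 7.02 percentage points higher in December (exact permutation test within breeds, two-sided, p = 0.005, the smallest the test can give, adjusted over 10 tests 0.05) and did not differ between Jeryak and yak beyond the spread (-0.63 points, p = 0.475, exact permutation test within months, two-sided). The measure was chosen after the values had been seen. Adding the C-ended copies back to miR-22-3p, by summing the entries of 1 arm, did not change any call of the 4 entries. Whether reads with other ends were counted in either entry was not stated.

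**Figure D4:**
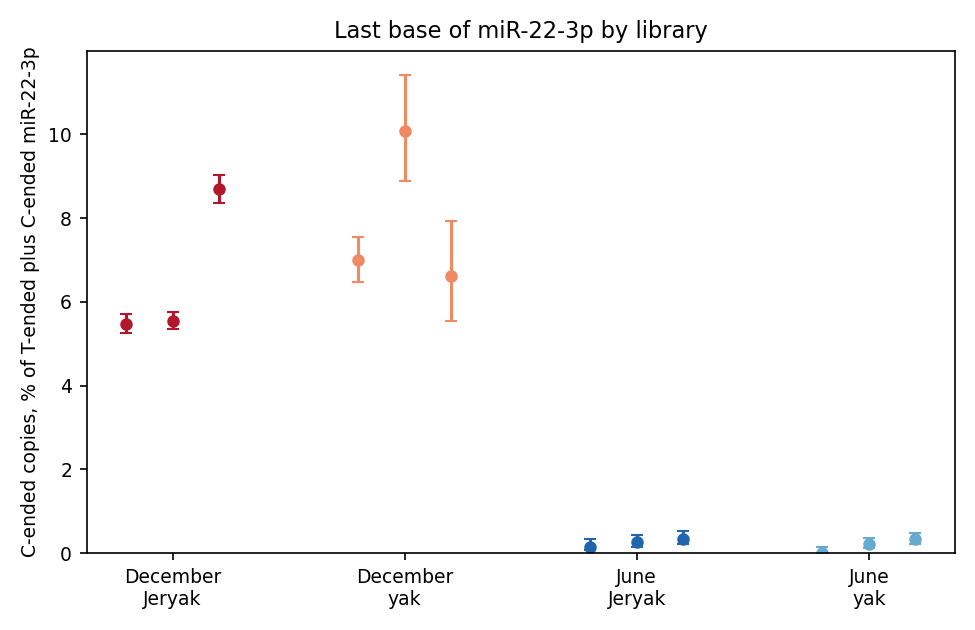
C-ended copies as a percent of T-ended plus C-ended miR-22-3p copies (y axis, from 0) in each of the 12 libraries by group, with 95% Wilson intervals as bars. The December libraries lie at 5.48 to 10.1% and the June libraries at 0 to 0.335%.

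The other entries of these miRNAs were rare. The entry mmr-miR-186, named for the mouse lemur, differs from bta-miR-186 by C13T and had norm values of at most 29.5. It was above 0 in 8 of 12 libraries and passed in no comparison. The remaining 4 entries of miR-22-3p and miR-186 under other species did not pass the filter, and none reached 23 norm values in a library. Those for miR-22-3p, with a further G21A or with C7T, which lies in the seed, and those for miR-186 were all at 0 in June.

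miR-191-3p, the opposite arm of miR-191, appeared only under a goat name with 1 substitution. It is shown with its seed in capitals beside both arms of miR-425, which is the neighbour of miR-191 in human.

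chi-miR-191-3p_L+1R-1_1ss21CT: gCTGCGCTtggatttcgttct

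bta-miR-425-5p_L+1: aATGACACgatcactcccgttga

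bta-miR-425-3p_L+1R-1: cATCGGGAatgtcgtgtccgcc

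miR-191-3p had norm values of 11.9, 16.4 and 1.35 in December Jeryak, against 27.7, 52.6 and 34.5 in June Jeryak. It was listed at 0 in all 3 December yak libraries, against 23.1, 23.4 and 40.2 in June yak. All December libraries lay below all June libraries, as for 13.9% of the 620 entries tested. miR-191-3p met the filter for testing only through its June libraries, where it was high, so its month tests are not independent of the filter. The change passed in yak (limma, adjusted p = 0.000635), where no fold is given against libraries at 0, and not in Jeryak (-2.23, SE 0.866, adjusted p = 0.0551). Between December Jeryak and December yak it did not pass (adjusted p = 0.0628), though it did with values scaled to the same total (adjusted p = 0.045) and without December Jeryak replicate 3, June Jeryak replicate 2 or June yak replicate 2 (adjusted p = 0.0233 to 0.0491). The change in Jeryak passed with values scaled to the same total (adjusted p = 0.0496), with a pseudocount of 10, and without December Jeryak replicate 2 or any 1 June yak library. In December yak, 1 copy stood for 0.730 to 1.86 norm values, against 0.127 to 0.269 in December Jeryak, so that a low level is less readily counted in yak. The listed 0 in yak may also stand for fewer than 5 copies.

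The arms of miR-425 passed in no comparison. miR-425-5p had norm values of 157, 402 and 102 in December Jeryak, 131, 101 and 129 in December yak, 174, 206 and 141 in June Jeryak and 102, 101 and 131 in June yak. Its average month difference was 0.11 (SE 0.347, limma, adjusted p = 0.799), beside -0.64 for miR-191, and the difference between the 2 was not tested. miR-425-3p ranged from 14.9 to 118 over the 12 libraries. Across these libraries the Spearman correlation of miR-191 with miR-425-5p was 0.31 and with miR-425-3p 0.01 (n = 12, which share 4 groups and their correction factors).

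Among the 4 entries, miR-22-3p and miR-186 had the highest Spearman correlation over the 12 libraries, 0.80. It was 0.72 for miR-22-5p and miR-186, 0.70 for the arms of miR-22 and 0.48 for miR-186 and miR-191. For miR-191 it was 0.30 with miR-22-3p and 0.32 with miR-22-5p. By Pearson's r of log2 values the order of the closest pairs was not the same. That r was 0.747 for the arms of miR-22 and 0.744 for miR-22-3p and miR-186. All pairs share the month difference of their libraries, and no test was made. Of 444 miRBase-named entries, the most like miR-186 were mmu-miR-2137_L-2R-1_1ss16AG (0.94), hsa-miR-7977_1ss6AG (0.93) and chi-miR-148a-5p (0.92). For miR-22-3p they were hsa-miR-320b_R-1_1ss20CA (0.91) and hsa-miR-320d_R+1 under 2 listings with the same values (0.89). For miR-191 the likeness was weaker, with bta-mir-2887-2-p5 (0.80), bta-miR-125a_R-1 (0.78) and mmu-mir-6240-p3_1ss15TG (0.77). All of these were lower in December by mean log2 value, by 0.94 to 3.82.

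miR-191 was set beside the other miRNAs often used as qPCR references, 8 entries in all. Its SD of log2 values over the 12 libraries was 0.496, above that of miR-103 (0.357) and below those of miR-423-3p (0.513), miR-25 (0.580), miR-423-5p (0.835), miR-93 (0.974), miR-16a (1.61) and miR-16b (1.97). The median SD of the 54 abundant bta entries was 0.590, and miR-191 was the 15th steadiest of them, against the 36th for miR-186 (0.723) and the 37th for miR-22-3p (0.764). In the average month difference, 4 of the 8 rose in December, 2 fell (miR-191 and miR-423-5p) and 2 did not pass. Of all entries tested, 20.3% rose and 38.1% fell in this comparison, and of the bta entries 31.5% rose and 13.1% fell. miR-103, which did not pass, had a change of 0.31 (limma, adjusted p = 0.259). None of the 8 passed between the breeds in December or June, where only 5.97% and 5% of all entries tested did.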

How the data were processed

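Small RNA libraries (TruSeq Small RNA, single-end) of exosomal RNA from 12 milk samples were processed by the authors with ACGT101-miR. Reads matching mRNA, RFam or Repbase were removed, and the remaining unique sequences, 18 to 26 nt long, were aligned to miRBase 22.0 with 1 mismatch and end variation allowed. The genome build was not given in the sources used here. The deposited signal is a norm value, which the authors made as copy number times 1 factor per library. Steps of 1 copy were read from the values, of which 73.4 to 85.9% per library were whole copies (within 0.02), so no count test was used.

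log2(norm value + 1) of the 620 entries with at least 10 in at least 3 libraries was fitted with limma 3.58.1 (R 4.3.3), with a variance trend, 1 mean per group and no block. P-values were Benjamini-Hochberg adjusted over all 620, and an entry passed under 0.05. "Bta" entries carry a cattle name. Depth was 247528 to 6168481 copies per library, and shares of copies have 95% Wilson intervals. The fit was run on simulated data with independent normal values and the same spread in every group. The groups here differed in depth and in how well their libraries correlated, so that run adds no support to the calls. Entries were named by rule: the 4 entries, entries of the same miRNA or seed, miR-425, the 3 most like by Spearman correlation, qPCR references and cell type markers. The members and lists were chosen with earlier results of these data known. The table has 1 line that is not reported here. Ratios, the average differences and their alternatives were added after the data were seen. Alternatives were the pseudocount (10), no filter, other scalings, fits of only the groups compared, a replicate block, summed arms and each library left out. Exact tests listed every permutation with numpy 2.4.6 (Python 3.11.15).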

Additional observations from a re-analysis of the deposited data

How the results depend on the processing

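miR-186 was lower in December in both breeds under every alternative and without any 1 library, at -1.48 to -1.26 in Jeryak and -1.41 to -1.07 in yak over the libraries left out. The change of miR-22-3p in yak stayed at -1.44 but did not pass with no filter or with only the 6 yak libraries, so that 1 of the 4 entries passed in yak in place of 2, and it was -1.78 to -0.996 over the libraries left out (1 to 2 of 4 entries passed). The average month change of miR-191 did not pass at -0.64 (no filter), -0.49 (same total) and -0.61 (median of ratios), and it was -0.78 to -0.51 over the libraries left out. The cause was not tested. The share of miR-186 in June Jeryak was 3.91% of the bta entries alone.

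Counts of all entries that passed between Jeryak and yak in June were 51 with pseudocount 10 and 3 with only these groups (31 in the report's fit, 15 to 48 with a library left out). In December they were 21 with no filter and 57 with only these groups (37, and 11 to 46). For the interaction they were 10 with no filter (34, and 5 to 35), and for the average breed difference 14 with no filter (41, and 16 to 50). The cause of these shifts in the counts was not tested. Small differences that had not passed changed sign under 1 alternative each, with no call: December miR-22-5p (-0.036, same total) and miR-191 (0.0030, median of ratios), the interactions of the C-ended miR-22-3p (0.048) and mmr-miR-186 (-0.22, both pseudocount 10) and of miR-425-5p (-0.20, same total), and the average month change of miR-425-3p (0.036, same total).

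With a library left out, values that had not passed also changed sign, again with no call, over these ranges. Jeryak against yak in June: miR-22-3p -0.38 to 0.31, miR-186 -0.19 to 0.13, miR-191 -0.11 to 0.41, C-ended miR-22-3p -0.50 to 2.51 and mmr-miR-186 -0.57 to 2.03. Jeryak against yak in December: miR-22-5p -0.14 to 0.30, miR-191 -0.22 to 0.24 and miR-425-3p -0.068 to 1.14. Average breed difference: miR-191 -0.060 to 0.21 and C-ended miR-22-3p -0.053 to 1.45. Interaction: miR-186 -0.28 to 0.062, miR-191 -0.41 to 0.10, C-ended miR-22-3p -2.12 to 0.90, mmr-miR-186 -1.12 to 1.48, miR-425-5p -0.54 to 0.44 and miR-425-3p -1.09 to 0.29. December against June: miR-425-5p -0.44 to 0.55 in Jeryak and -0.16 to 0.33 on average, and miR-425-3p -0.49 to 0.017 in Jeryak, -0.56 to 0.83 in yak and -0.41 to 0.28 on average. The log2 ratios between Jeryak and yak were -0.35 to 0.052 for miR-186 over miR-191, -0.015 to 0.56 for miR-22-3p over miR-191 and -0.18 to 0.099 for the arms of miR-22.

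Same-numbered libraries of the groups compared correlated at -0.06 to 0.14 in their deviations from the group means, and in no comparison was every pair above 0.1. With the replicate block the average breed difference had 22 entries, and it changed no call of the 4 entries. For miR-186 the adjusted p with the block was 0.0046 in Jeryak and 0.0058 in yak.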

Other observations

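The table held 8 pairs of entries in which a cattle-named entry ended in T and another entry of the same sequence ended in C, miR-22-3p being 1 of them. Of the 8, 3 pairs have the T-ended entry bta-mir-2285t-p5 and hold 1 C-ended sequence under 3 names with the same values, so that there are 6 distinct pairs. The median share of the C-ended entry was higher in December than in June in 5 of these 6. In that of bta-mir-2285t-p5 it was 0.0121% in December, above 0 in 3 December libraries, and 0 in June, and December Jeryak libraries were deeper (2281114 to 6168481 copies, against 247528 to 840850 in the others). The part of depth in these shares was not tested. In 2 pairs the 6 December libraries did not overlap the 6 June libraries. Besides miR-22-3p this was miR-151-5p, whose C-ended entry carries the name hsa-miR-151b_R+3_2 and made up 4.39 to 8.14% in December and 0 to 0.709% in June. For miR-328 the share was 0 to 13.9% in December and 0 in all June libraries. The other 3 distinct pairs had a C-ended share of at most 1.16% in any library. The search was made after the shares of miR-22-3p had been seen, and the values are given with no test.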
